A study of Mus musculus with 2 samples.

Results

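Dendritic cells that express Cd209a were described here in single-cell RNA sequencing of the mouse aortic arch. A cell was taken as a member when it held at least 1 UMI (a unique molecular identifier, which counts 1 captured RNA molecule) of Cd209a and at least 1 UMI of 1 of 5 further genes, Klrb1b, Flt3, Tbc1d4, Wnt11 and Tnip3. Its complement C1q genes had to stay under 0.2% of UMIs, Xcr1 and Clec9a had to be at 0, and Pecam1 and Cdh5 could not both be present. The rule found 82 members among 8155 cells that passed quality filters, 31 of 5416 in the normal diet (ND) library and 51 of 2739 in the high fat diet (HFD) library. All animals were male Apoe-/- mice on a C57BL/6 background, aged 16 weeks and kept for 12 weeks on a normal diet or on a diet high in fat and cholesterol. Mice that lack Apoe clear lipoproteins poorly and are prone to atherosclerosis, and both diets share that deletion. Cells from 2 aortas were pooled into 1 library per diet, so animals cannot be told apart. With 1 library per diet no test between diets could be made, and every interval below is a 95% exact interval that covers counting error only.

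Conventional dendritic cells take up antigen in tissues, load peptides on MHC class II molecules and carry them to lymph nodes to prime T cells. They depend on the growth factor receptor Flt3. One lineage, marked by Xcr1 and Clec9a, is specialised in cross-presentation to CD8 T cells. The other, marked by Sirpa, lectins of the Clec10a family and in mouse also by Cd209a, presents mainly to CD4 T cells, and monocyte-derived cells can share many of its genes. Cd209a itself is a C-type lectin of the DC-SIGN family. In the healthy and atherosclerotic aorta such cells lie in the intima and the adventitia.

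The MHC class II genes had the highest summed level of the 35 gene lists in these cells, and their promoters carry a known shared layout of short boxes to which the transactivator Ciita is recruited by DNA-bound factors. For 2 of the most abundant class II genes the 250 bases before the RefSeq transcription start are shown to make that layout visible (build GRCm38.p6, 5′ to 3′ on the gene's strand). Capitals mark GATTGG (the core of the Y box) or the same core on the opposite strand, the motif GATGATG, and the cyclic AMP response element TGACGTCA. H2-Aa lies on the minus strand at chr17:34287824-34288073 and H2-Eb1 on the plus strand at chr17:34305617-34305866.
H2-Aa: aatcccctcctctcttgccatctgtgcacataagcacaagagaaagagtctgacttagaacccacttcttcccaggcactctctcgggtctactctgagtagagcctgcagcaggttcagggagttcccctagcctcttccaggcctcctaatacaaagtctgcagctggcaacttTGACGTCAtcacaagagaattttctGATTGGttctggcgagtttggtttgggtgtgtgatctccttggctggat
H2-Eb1: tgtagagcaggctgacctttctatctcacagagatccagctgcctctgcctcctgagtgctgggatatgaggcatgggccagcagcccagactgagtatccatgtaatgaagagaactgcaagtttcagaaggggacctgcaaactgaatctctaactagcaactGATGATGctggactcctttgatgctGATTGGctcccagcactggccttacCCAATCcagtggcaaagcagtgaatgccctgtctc
In H2-Aa the TGACGTCA began 74 bases and the GATTGG 49 bases before the start, and in H2-Eb1 the GATGATG began 85 bases and the GATTGG 60 bases before it. The same pair stood 88 and 62 bases before the start of H2-DMb1 and 117 and 91 bases before that of H2-DMb2. Searched on both strands, all 8 class II genes with an entry in the RefSeq table held GATTGG (H2-DMa at its second listed start), against 14.6% of 32851 promoter windows of that length. GATGATG was found in 3 of the 8, against 2.92% of all windows. TGACGTCA was found in 1.55% of all windows. These are matches of letters and do not show that a factor is bound. H2-Ab1 and Ciita were named only.

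The label was checked mainly against genes that the rule did not use. All 31 ND and all 51 HFD members held UMIs of H2-Aa and Cd74, and H2-Aa reached 10361 and 10491 CPM (UMIs of a gene per 1000000 UMIs of the summed cells). In the other kept cells H2-Aa stood at 1089 and 1435 CPM. Clec10a and Mgl2, lectins of this lineage, were at 327 and 744 CPM in ND and at 412 and 721 CPM in HFD. The list of 14 genes of this lineage summed to 2089 and 2072 CPM. It set the members little apart from macrophages, at 1913 and 1525 CPM, or endothelial cells, at 2054 and 2026 CPM. It was lower in monocytes, at 1076 and 851 CPM, and in the dendritic cells with Xcr1 or Clec9a, at 727 and 443 CPM. Ccr2, the chemokine receptor of cells that came from blood, was at 422 and 405 CPM. The list of general dendritic cell genes summed to 1080 and 1102 CPM, against 874 and 995 CPM in macrophages. In the dendritic cells with Xcr1 or Clec9a that list summed to 2289 and 2664 CPM. The transcription factors were sparse: Zbtb46, which marks conventional dendritic cells, had 8 and 3 UMIs in all, and Irf4, a factor of this lineage, had 6 and 7. Itgae, a marker of the Xcr1 lineage, was at 0 in both libraries, but other markers of that lineage were present. The list of 10 markers of the Xcr1 lineage, in which the rule set Xcr1 and Clec9a to 0, summed to 108 and 180 UMIs (512 and 612 CPM). At least 1 of its genes was found in 27 of 31 ND and 43 of 51 HFD members. In the dendritic cells with Xcr1 or Clec9a the list summed to 4482 and 4660 CPM.

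Of the marker lists of other cell types those of monocytes had the most UMIs apart from haemoglobin in HFD, at 994 in ND and 973 in HFD (4709 and 3311 CPM). Macrophage markers summed to 82 and 133 UMIs, with C1qb at 3 and 33. The rule capped C1q and barred cells with both Pecam1 and Cdh5, so low values of these genes were partly set by it. T cell markers summed to 8 UMIs in ND and 3 in HFD, natural killer cell markers to 0 and 7, smooth muscle markers to 1 and 0, and B cell markers to 34 and 33. Fibroblast markers summed to 195 and 56 UMIs, and a single ND cell held 94 of the 136 ND UMIs of Gsn. Endothelial markers summed to 77 and 30 UMIs, and plasmacytoid dendritic cell markers to 48 and 72, with 1 HFD cell holding all 7 of those genes. Neutrophil markers summed to 249 and 162 UMIs, nearly all in 1 cell of each library, where S100a8 and S100a9 made up 2.92% and 2.02% of UMIs. Haemoglobin summed to 15 UMIs in ND and 4137 in HFD, and 2 HFD cells held 3964 of these, at 31.4% and 16.2% of their UMIs. Cells with UMIs of 2 or more markers of a T cell, B cell, fibroblast or endothelial list, which may be doublets, numbered 13 of 31 in ND and 10 of 51 in HFD. The part of these cells in the results was not tested, and some values without them are given below.

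The 31 ND members held 211082 UMIs, with a median of 6027 per cell (2028 to 13721) and 1837 genes. The 51 HFD members held 293881 UMIs, with a median of 5378 (1807 to 11906) and 1551 genes. Mitochondrial UMIs were a median of 10.5% per ND member (5.11 to 26.0%) and 22.3% per HFD member (10.9 to 29.5%), against 16.9% and 21.9% in the other kept cells. It was 10.7% and 18.6% in the Xcr1 or Clec9a dendritic cells and 13.8% and 25.8% in monocytes, so the gap between diets was of like size in monocytes. Ribosomal protein genes took 19.7% of the members' UMIs in ND and 17.5% in HFD. Of 39 barcodes listed in both libraries 1 passed the filters in both, and 0 were members.

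Cd209a dendritic cells took a larger share of the HFD library. They were 0.572% of ND cells (0.389 to 0.811%) and 1.86% of HFD cells (1.39 to 2.44%), a ratio of 3.25 (2.04 to 5.26). The dendritic cells with Xcr1 or Clec9a were 21 ND and 18 HFD cells, with a log2 ratio of shares of 0.76 (-0.23 to 1.74), against 1.70 (1.03 to 2.39) for the Cd209a cells. The log2 ratio was 1.32 (1.10 to 1.54) for macrophages, at 320 and 404 cells, and -3.85 for B cells, at 541 and 19 cells. Shares in one library sum to a fixed whole, so the lower share of B cells in HFD enters every other share.

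The size of that ratio moved with the denominator and the mitochondrial limit. Among cells with a UMI of Ptprc, the CD45 gene of leukocytes, members with such a UMI were 30 of 1531 in ND (1.96%) and 47 of 778 in HFD (6.04%), a ratio of 3.08. With the B cells left out of the denominator the shares were 2.78% of 1079 and 6.10% of 771, a ratio of 2.19 (1.36 to 3.59). With a limit of 20% mitochondrial UMIs they were 29 of 3532 (0.821%) and 17 of 1072 (1.59%), a ratio of 1.93 (0.996 to 3.63). When barcodes over 30% were also counted, they were 32 of 7715 (0.415%) and 62 of 9954 (0.623%), a ratio of 1.5 (0.965 to 2.38). These last 2 intervals include 1. Without the cells that may be doublets the shares were 0.332% and 1.5%, a ratio of 4.5 (2.53 to 8.33). The HFD share was the higher in each of these settings.

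**Figure D1:**
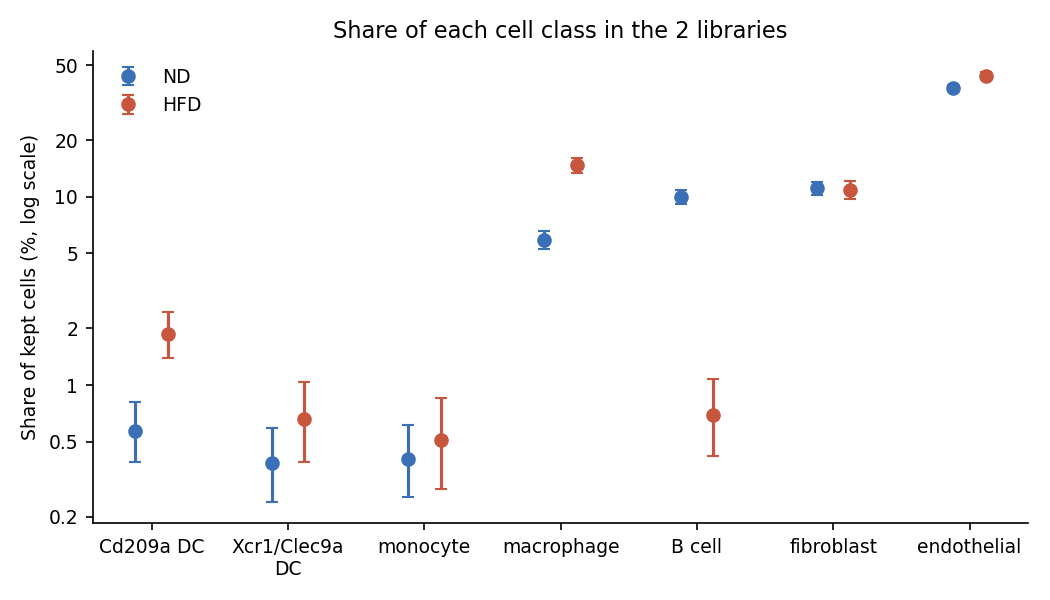
Share of kept cells in percent (log scale) for each cell class, with exact 95% binomial intervals, in the ND and HFD libraries. The Cd209a dendritic cells stood at 0.572% in ND and 1.86% in HFD, the macrophages were also higher in HFD, and the B cells were lower.

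The steps of the rule show which cells were lost. A Cd209a UMI was present in 98 ND and 143 HFD cells, and 72 and 92 of these had a further gene of the rule. The C1q limit left 50 and 63, the absence of Xcr1 and Clec9a 46 and 62, and the Pecam1 and Cdh5 limit 31 and 51. In cells that should lack Cd209a a UMI of it was rare, in 1 of 601 ND fibroblasts (0.166%), 0 of 299 HFD fibroblasts, 2 of 2052 ND endothelial cells (0.0975%) and 5 of 1204 HFD endothelial cells (0.415%). The median depth of these cells was 4175 and 4628 UMIs for fibroblasts and 3931 and 5388 UMIs for endothelial cells. Near the C1q limit the highest member stood at 0.0369% of UMIs in ND and 0.155% in HFD, and the lowest cell left out for C1q alone stood at 0.511% and 0.216%. Members without any C1q UMI numbered 24 of 31 and 40 of 51.

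The genes of the rule are described without a comparison, since they chose the cells, although they stayed in the gene counts below. Cd209a (chromosome 8, 3743397 to 3748984, minus strand, GRCm38) had 267 UMIs in ND and 306 in HFD, or 1265 and 1041 CPM, and a median of 7 and 5 UMIs per member. A single Cd209a UMI placed 5 members in each library. Tnip3, an inhibitor of NF-kappaB signalling, had 103 and 88 UMIs, and Wnt11, a secreted Wnt ligand, had 32 and 29. Flt3, the receptor of the dendritic cell growth factor, had 23 and 35. Klrb1b, an inhibitory lectin receptor, had 24 UMIs in 13 ND cells and 73 UMIs in 35 HFD cells. Tbc1d4, a Rab GTPase-activating protein, had 14 UMIs in 5 ND cells, 10 of them in 1 cell, and 66 UMIs in 16 HFD cells. The paralogs Cd209d and Cd209c, whose reads can be hard to separate from Cd209a, had 12 and 15 UMIs and 5 and 6 UMIs.

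For the diets, 1172 genes had at least 50 UMIs over both libraries. At least a 2-fold difference was seen in 104 of them (8.87%), 32 higher in HFD (2.73%) and 72 lower (6.14%). Counts of list genes past 2-fold below are to be read against these shares, and most lists held few tested genes. The median log2 ratio of HFD over ND was -0.19 in CPM, and mitochondrial genes took 10.4% of the members' UMIs in ND and 21.2% in HFD. Scaling by median of ratios added 0.24 to every log2 ratio and gave 56 higher and 39 lower genes. Without mitochondrial, haemoglobin and ribosomal protein genes 0.22 was added, and 40 genes were higher and 40 lower of 1076. The split between higher and lower genes therefore depended on the scaling, and log2 ratios below are in CPM and are to be read against -0.19. Of the 32 higher genes 10 were mitochondrial and 4 were haemoglobin genes. Klrb1b and Tbc1d4 were also among the 32, but as genes of the rule they are no result about the members.

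**Figure D2:**
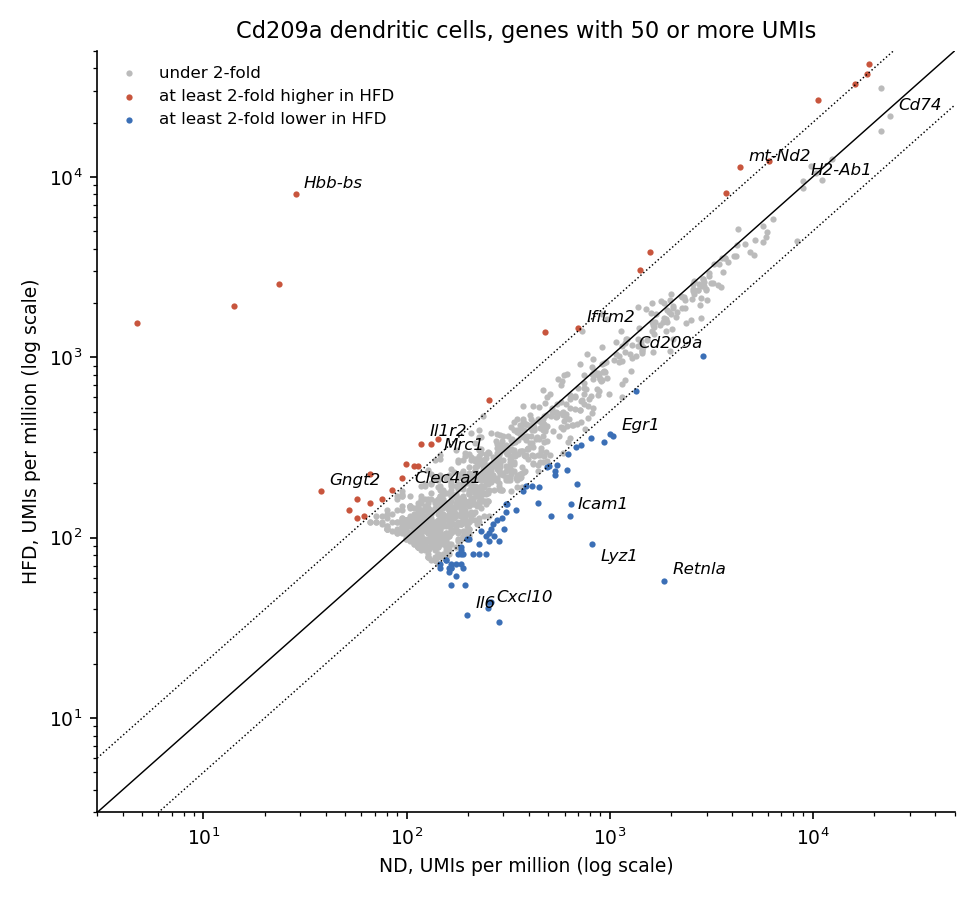
CPM in ND (x axis) and HFD (y axis), both on log scales, for genes with at least 50 UMIs in the Cd209a dendritic cells. The solid line marks equal levels and the dotted lines a 2-fold difference, with the antigen presentation genes H2-Ab1 and Cd74 near the solid line, Retnla and Icam1 below it and the haemoglobin gene Hbb-bs far above it.

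The 11 MHC class II genes summed to 55130 CPM in ND and 55250 CPM in HFD, a log2 ratio of 0.00 (-0.03 to 0.04), and to 5872 and 7416 CPM in the other kept cells. With the other scalings the ratio was 0.25 and 0.23, and 8 of the 9 genes that passed the UMI limit lay above the median of all genes. Per cell the group made up a median of 6.07% of UMIs in ND (2.08 to 16.8%) and 5.54% in HFD (1.05 to 8.71%), so the libraries overlapped widely. Cd74, the invariant chain that guides class II molecules to endosomes, had 23877 and 21706 CPM, and H2-Ab1, a class II beta chain, had 8911 and 9500 CPM. H2-Eb1, a second beta chain, had 9792 and 11420 CPM. H2-DMa, which helps load peptide, had 938 and 926 CPM.

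Of 9 class II genes that passed the UMI limit 1 was at least 2-fold higher in HFD and 0 were lower, against 2.73% and 6.14% of all genes tested. It was Ciita, the transactivator of the class II genes, with 14 UMIs from 10 ND cells and 46 UMIs from 25 HFD cells. Its level was 66.3 CPM in ND and 157 CPM in HFD, a log2 ratio of 1.24 (0.35 to 2.22), and 12.4 and 13.1 CPM in the other kept cells. At these counts the interval is wide, and the class II genes themselves did not differ in parallel. H2-DMb2 was at 213 and 167 CPM and H2-Oa, which tempers peptide loading, at 118 and 136 CPM.

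The MHC class I group summed to 6244 CPM in ND and 4975 CPM in HFD, a log2 ratio of -0.33, and 0 of 7 genes passed 2-fold. B2m, the light chain of class I, had 2023 and 1429 CPM, and H2-K1, a heavy chain, had 1521 and 1249 CPM. Endosomal processing genes summed to 6220 and 5860 CPM, a log2 ratio of -0.09 that the other scalings turned above 0. Cst3, a cysteine protease inhibitor that is abundant in dendritic cells, had 3416 and 2508 CPM, and Ctss, the cathepsin that trims the invariant chain, had 772 and 1041 CPM. Lgmn, an asparaginyl endopeptidase, was the 1 gene of 9 past 2-fold, with 23 UMIs from 12 ND cells and 73 from 37 HFD cells, or 109 and 248 CPM (log2 1.19, 0.50 to 1.93). Of all genes tested 2.73% were at least 2-fold higher. In the other kept cells Lgmn differed in the same direction, at 129 and 505 CPM.

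Lectin receptors were higher in the HFD members. The group summed to 673 CPM in ND and 1300 CPM in HFD, a log2 ratio of 0.95 (0.67 to 1.24). In the pool of other kept cells it summed to 189 and 372 CPM, about the same ratio. Within macrophages it was lower in HFD, at 1880 and 1292 CPM. Monocytes, at 896 and 723 CPM, and dendritic cells with Xcr1 or Clec9a, at 322 and 256 CPM, were also lower, with overlapping intervals. Fibroblasts, at 5.18 and 20.2 CPM, and endothelial cells, at 11.5 and 28.1 CPM, were higher. B cells held 17.1 and 22.1 CPM, with overlapping intervals. The part of class shares in the pooled ratio was not tested. In the members the 4 genes that passed the UMI limit had a median log2 ratio of 1.14. Of these 2 were at least 2-fold higher, against 2.73% of all genes tested. Clec4a1, a receptor of the DCIR family, had 21 UMIs from 14 ND cells and 75 UMIs from 34 HFD cells, or 99.5 and 255 CPM (log2 1.36, 0.65 to 2.13). Mrc1, the mannose receptor, had 28 UMIs from 13 cells and 97 UMIs from 31 cells, or 133 and 330 CPM (log2 1.32, 0.70 to 1.98). The other kept cells held Clec4a1 at 26.1 and 58.6 CPM and Mrc1 at 82.4 and 161 CPM. Klrd1, the CD94 chain, was at 137 and 269 CPM (log2 0.97), which passed 2-fold under the other scalings. Clec4a3, a further DCIR member, was at 147 and 194 CPM (log2 0.40, -0.25 to 1.08). Thinned to 1000 UMIs per cell, Clec4a1 was still detected in 12.9% of ND and 27.5% of HFD members.

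Fc receptors summed to 1876 CPM in ND and 2525 CPM in HFD, a log2 ratio of 0.43, with 0 of 2 genes past 2-fold. Fcer1g, the shared signalling chain, had 1383 and 1892 CPM, and Fcgr2b, the inhibitory receptor, had 398 and 422 CPM. The activating receptor Fcgr4 had 2 UMIs in 1 ND cell and 20 UMIs in 13 HFD cells. Fcgr1, which was named after its values were seen, had 0 UMIs in ND and 13 UMIs in 9 HFD cells. The Fc receptor group was also higher in the other HFD cells, at 315 and 909 CPM. Toll-like receptors and their partners summed to 125 UMIs in ND and 153 in HFD, a log2 ratio of -0.19 in CPM.

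Costimulatory genes summed to 1265 CPM in ND and 966 CPM in HFD, and 0 of 2 genes passed 2-fold. Cd83, which marks activated dendritic cells, had 786 and 538 CPM, and Tnfsf9, the ligand of 4-1BB, had 294 and 184 CPM. Cd86, a ligand of CD28 that lay under the UMI limit, had 9 UMIs from 7 ND cells and 32 UMIs from 22 HFD cells. The genes of mature, migrating dendritic cells were sparse, with 67 UMIs in ND and 16 in HFD (log2 -2.54, -3.43 to -1.74), and 7 of 13 were at 0 in both libraries. This was 317 and 54.4 CPM, under the 526 and 415 CPM of the other kept cells. Endothelial cells held the list at 778 and 603 CPM and fibroblasts at 283 and 241 CPM. Its genes were thus not specific to dendritic cells. The list was also lower in HFD in the dendritic cells with Xcr1 or Clec9a, at 495 and 38.8 CPM. It differed little in monocytes, at 179 and 199 CPM, and in macrophages, at 38.6 and 40.4 CPM. Ccr7, the receptor that guides dendritic cells to lymph nodes, had 37 UMIs from 5 ND cells and 10 UMIs from 7 HFD cells. Ccl22, a chemokine for regulatory T cells, had 16 UMIs from 3 cells and 2 UMIs from 1 cell. Only 1 ND cell and 0 HFD cells held 3 or more of these genes, so the sum rested on few cells.

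Cytokine genes summed to 2255 CPM in ND and 1667 CPM in HFD, a log2 ratio of -0.44. Il1b took most of it, at 1431 and 1181 CPM in 19 and 37 cells. Il6 was the 1 gene of 4 past 2-fold, with 42 UMIs from 9 ND cells and 11 UMIs from 3 HFD cells, or 199 and 37.4 CPM (log2 -2.41). In the other kept cells Il6 was the higher in HFD, at 23.5 CPM in ND and 41.7 CPM in HFD. Tnf was at 114 and 126 CPM. Il1rn, the interleukin-1 receptor antagonist, had 25 UMIs from 8 cells in ND and 15 UMIs from 5 cells in HFD.

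The decoy receptor of interleukin-1, Il1r2, was on the other hand higher in HFD, with 25 UMIs from 8 ND cells and 97 UMIs from 21 HFD cells. This was 118 and 330 CPM, a log2 ratio of 1.48 (0.83 to 2.18). The other kept cells held 23.7 and 12.2 CPM, so they differed in the opposite direction. Among the ND cells 1 cell held 12 of the 25 UMIs, and without the top cell of each library the log2 ratio was 2.14. Without the cells that may be doublets it was 0.41, and without the cells led by haemoglobin or by S100a8 and S100a9 it was 2.40.

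Chemokines summed to 3871 CPM in ND and 3968 CPM in HFD, a log2 ratio of 0.04. Ccl6 and Ccl9, CC chemokines of myeloid cells, were at 1132 and 824 CPM in ND and at 1399 and 983 CPM in HFD. Cxcl2, a neutrophil attractant, was at 749 and 793 CPM, and 1 ND cell held 104 of its 158 UMIs. Of 7 genes 1 was past 2-fold in each direction. Cxcl10, an interferon-induced ligand of Cxcr3, had 53 UMIs from 11 ND cells and 12 UMIs from 1 HFD cell, or 251 and 40.8 CPM (log2 -2.62). Ccl5 had 12 UMIs in ND and 48 in HFD (log2 1.52), but 42 of the 48 came from 1 cell, and without the top cells the log2 ratio was -0.72.

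Interferon-induced genes summed to 5012 and 5822 CPM, a log2 ratio of 0.22. Of 6 genes 2 were at least 2-fold higher, against 2.73% of all genes tested. These were the membrane proteins Ifitm2, with 147 UMIs from 27 ND cells and 427 UMIs from 50 HFD cells (696 and 1453 CPM, log2 1.06), and Ifitm1, with 54 and 171 UMIs (log2 1.19). Ifitm1 turned to -0.39 with at most 20% mitochondrial UMIs and stood at 0.45 without the cells that may be doublets. The third family member, Ifitm3, differed little, at 1843 and 1994 CPM. Ifit1, a sensor of foreign RNA that was under the UMI limit, went the other way, with 27 UMIs in ND and 2 in HFD. Chemokine receptors summed to 810 and 888 CPM. Ccr2 was at 422 and 405 CPM, and 0 of 3 genes passed 2-fold.

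Among adhesion genes Icam1 and Itgb7 were at least 2-fold lower in HFD in CPM, with UMIs in most ND members. Icam1, the ligand of leukocyte integrins that steadies contact with T cells (chromosome 9, 21015985 to 21028817), had 134 UMIs from 24 of 31 ND cells and 39 UMIs from 19 of 51 HFD cells. It stood at 635 CPM in ND and 133 CPM in HFD, a log2 ratio of -2.26 (-2.81 to -1.73), and the most UMIs in a cell were 16 in ND and 4 in HFD. The other kept cells held 187 and 162 CPM. After thinning to 1000 UMIs it was detected in 35.5% of ND and 13.7% of HFD members, and leaving out the top cells left the log2 ratio at -2.26. Itgb7, an integrin beta chain that is typical of dendritic cells, had 49 UMIs from 22 cells and 32 UMIs from 19 cells (log2 -1.09, -1.78 to -0.42), which fell under 2-fold with the other scalings. Over the 9 tested genes 0 were higher and 2 lower, and the summed log2 ratio of -0.15 turned above 0 with the other scalings. Cd52, a small glycoprotein of leukocytes, was at 1611 and 1997 CPM and Itgb2, the beta 2 integrin, at 242 and 225 CPM.

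**Figure D3:**
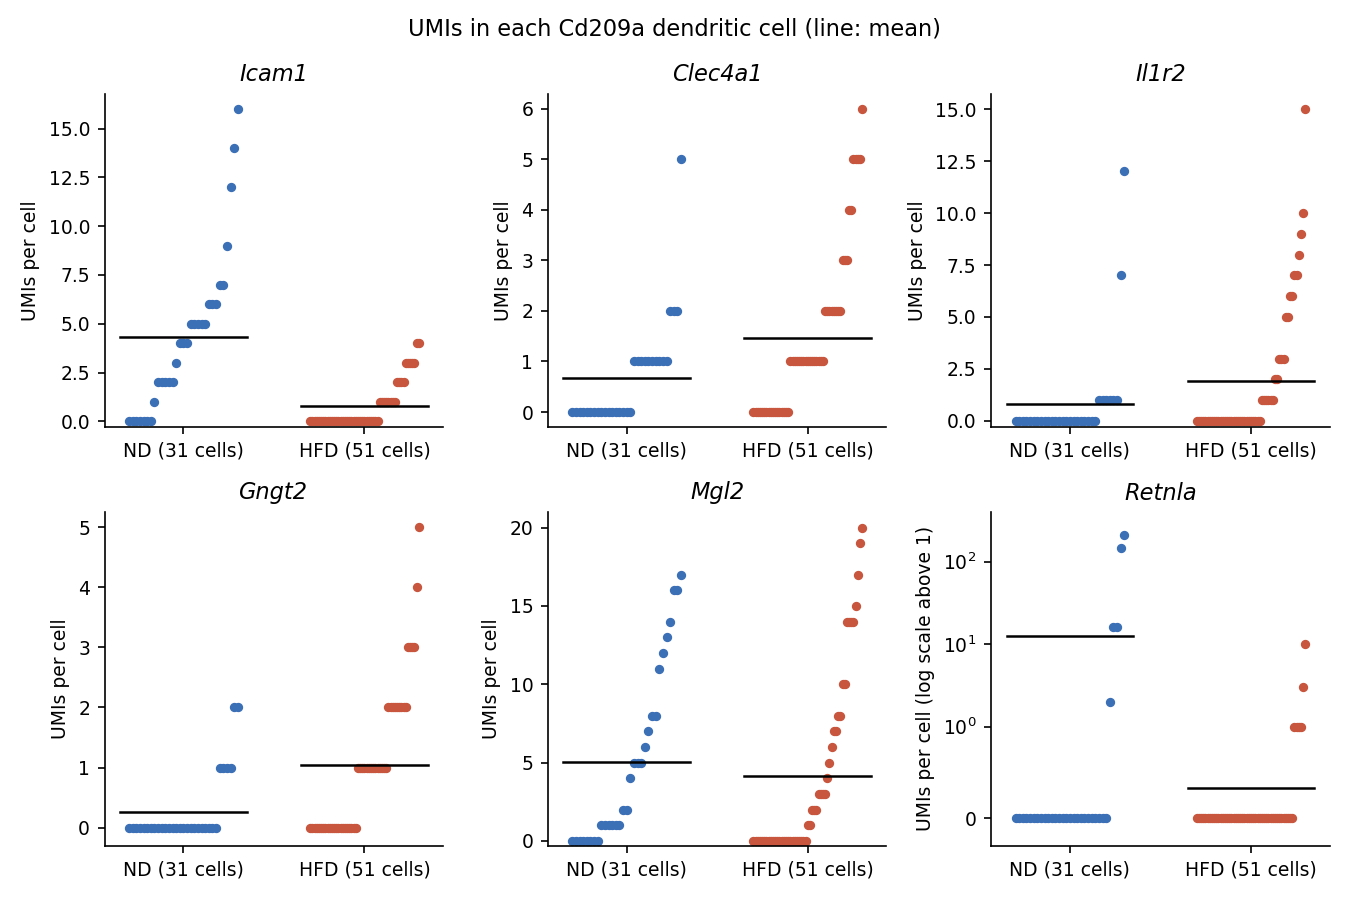
UMIs of 6 genes in each Cd209a dendritic cell, ordered from low to high within a library, with the mean as a line (Retnla on a log scale above 1). Icam1 was present in 24 of 31 ND cells and reached 16 UMIs, while Retnla in ND rested on 2 cells with 211 and 147 UMIs.

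Among genes with at least 50 UMIs the largest ratio that was lower in HFD rested on few cells. Retnla, a secreted protein of alternatively activated myeloid cells, had 392 UMIs in ND and 17 in HFD (1857 and 57.9 CPM, log2 -5.00), and 2 ND cells held 211 and 147 of them. Only 5 ND and 6 HFD cells had any Retnla UMI, and the other kept cells were at 230 and 326 CPM. Lyz1, a lysozyme, had 173 and 27 UMIs, with 142 in 1 ND cell and all 27 in 1 HFD cell. Gsn, an actin-severing protein that is high in fibroblasts, had 136 and 45 UMIs, and its log2 ratio of -2.07 moved to -0.51 without the top cells. Aqp1, a water channel of endothelium, had 60 and 10 UMIs, with 47 in 1 cell. These genes are therefore described by cell rather than by their sums.

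Genes tied to cell division had a lower sum in HFD, and a few ND cells carried much of it. The group summed to 320 UMIs in ND and 152 in HFD, or 1516 and 517 CPM, a log2 ratio of -1.55. Of 3 tested genes in the group 2 were at least 2-fold lower, against 6.14% of all genes tested. In the other kept cells the group summed to 513 and 466 CPM. It was also lower in HFD in monocytes, at 1237 and 326 CPM, and in macrophages, at 692 and 388 CPM. In the dendritic cells with Xcr1 or Clec9a it was higher in HFD, at 1013 and 1709 CPM. In 4 of the 31 ND cells the cell cycle genes made up 0.588 to 0.652% of UMIs, and in every other ND cell at most 0.202%. The median was 0.0419% in ND and 0.0222% in HFD, where the highest cell stood at 0.496%. Stmn1, which destabilises microtubules, had 54 UMIs from 9 ND cells and 13 UMIs from 5 HFD cells (log2 -2.53). Hmgb2, a chromatin protein of dividing cells, had 145 UMIs from 22 cells and 58 UMIs from 28 cells (log2 -1.80, -2.26 to -1.35). Top2a and Birc5, needed in mitosis, had 20 and 19 UMIs in ND and 6 and 6 in HFD. At least 3 genes of the list were found in 11 of 31 ND cells and in 6 of 51 HFD cells, at median depths of 7419 and 7163.5 UMIs for those cells. No cell was called cycling from these counts.

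Genes of sterol synthesis and uptake had a lower sum in HFD, but 1 of 16, Srebf2, passed the UMI limit and 0 were past 2-fold. The 16 genes summed to 161 UMIs in ND and 81 in HFD, or 763 and 276 CPM (log2 -1.47, -1.87 to -1.07). The other kept cells differed in the same direction, at 332 and 167 CPM. These genes are switched on by Srebf2 when a cell is short of cholesterol. Insig1, a sensor of the pathway, had 27 UMIs from 18 ND cells and 8 UMIs from 7 HFD cells. Srebf2 itself had 25 and 26 UMIs. The group was spread over cells, with at least 1 UMI in 29 of 31 and 35 of 51, and leaving out the top cell of each gene gave a log2 ratio of -1.57.

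Lipid handling genes summed to 3672 CPM in ND and 2828 CPM in HFD, a log2 ratio of -0.38. The other kept cells held 15992 and 25323 CPM, and endothelial cells among them 28915 and 38288 CPM. The list was higher in HFD in macrophages, at 6458 and 19853 CPM, and in monocytes, at 5727 and 8297 CPM. It was also higher in the dendritic cells with Xcr1 or Clec9a, at 1997 and 2710 CPM. Of 6 genes tested in the members 2 were at least 2-fold lower, and in both a single ND cell held most of the UMIs. Fabp4, a fatty acid carrier of endothelium and macrophages, had 199 and 100 UMIs, with 146 in 1 ND cell, and Cd36, a scavenger receptor, had 48 and 24, with 33 in 1 ND cell. Their log2 ratios were -1.47 and -1.48 over all cells, 0.20 and -0.44 without the top cells, and 0.37 and 1.87 after thinning. Fabp4 was at 2.23 without the cells that may be doublets. The group was at -0.00 without the top cells. Pltp, the phospholipid transfer protein, was at 374 and 538 CPM, and Plin2, which coats lipid droplets, was at 94.8 and 91.9 CPM. Plin2 in the other kept cells was at 127 and 254 CPM.

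Immediate early genes, which dissociation of tissue can also switch on, summed to 15004 CPM in ND and 9997 CPM in HFD, a log2 ratio of -0.59, and to 13792 and 11480 CPM in the other kept cells. All 15 passed the UMI limit, with 0 higher and 4 lower in CPM, and 2 lower under the other scalings. In CPM 6.14% of all genes tested were lower. Egr1 had 1042 and 364 CPM (log2 -1.52, -1.86 to -1.18) and Jun had 445 and 157 CPM (log2 -1.51). Klf2 and Klf6, zinc finger factors of resting and of activated cells, had log2 ratios of -1.21 and -1.19. Fos differed little, at 1379 and 1259 CPM, and Junb was at 3539 and 2447 CPM. Heat shock genes summed to 3023 and 1902 CPM, a log2 ratio of -0.67, with 0 of 5 past 2-fold and with 4146 and 2839 CPM in the other kept cells. Circadian clock genes had a log2 ratio of -0.59, with 0 of 3 past 2-fold. The part of dissociation in these values was not tested.

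**Figure D4:**
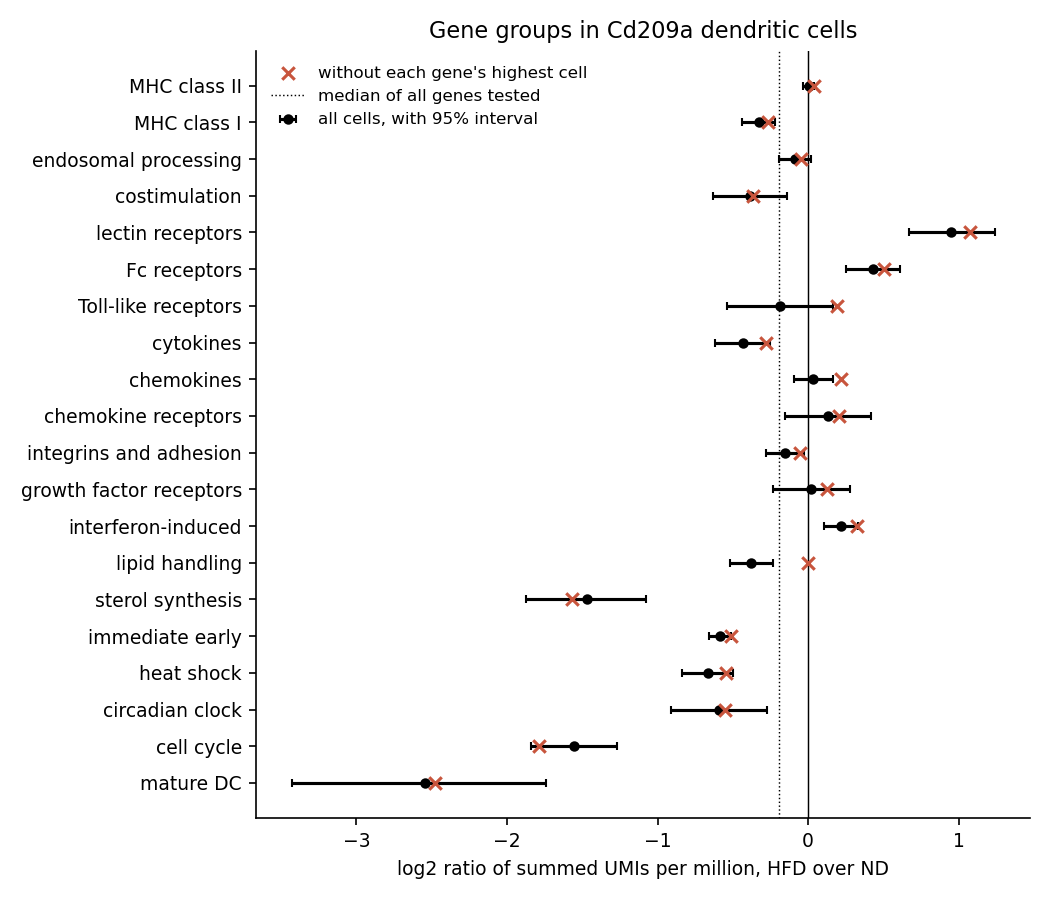
Log2 ratio of HFD over ND of the summed CPM of each gene group in Cd209a dendritic cells, with exact 95% intervals (black) and after leaving out the cell with the most UMIs of each gene in each library (crosses). The lectin receptors stood at 0.95, MHC class II at 0.00, and sterol synthesis, cell cycle and mature dendritic cell genes were below -1.

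Other genes that were higher in HFD included signalling components. Gngt2, a G protein gamma subunit, had 8 UMIs from 6 ND cells and 53 UMIs from 29 HFD cells, or 37.9 and 180 CPM (log2 2.25, 1.17 to 3.53). The other kept cells were at 103 and 292 CPM, and leaving out the top cells gave 2.49. Fgr, a Src family kinase of myeloid cells, had 11 UMIs from 7 cells and 42 UMIs from 23 cells (log2 1.46, 0.47 to 2.56). The mitochondrial genes mt-Atp8 and mt-Nd2 had log2 ratios of 1.51 and 1.37. The 4 haemoglobin genes, such as Hbb-bs with 6 and 2364 UMIs, were past 2-fold, with most UMIs in the 2 cells named above. Without those cells haemoglobin was at 71.1 CPM in ND and 628 CPM in HFD, against 3939 and 26773 CPM in the other kept cells. Among genes with 3 or fewer UMIs in ND, Cd72, a coreceptor known from B cells, had 2 UMIs in 2 ND cells and 35 UMIs in 25 HFD cells. Arhgap39 had 3 UMIs in 2 cells and 38 UMIs in 14 cells, but 2 HFD cells held 15 and 11 of the 38.

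Other genes were lower in HFD. Mt2, a metallothionein, had 108 UMIs from 16 ND cells and 39 UMIs from 11 HFD cells (log2 -1.95, -2.51 to -1.41), and Rgcc, a cell cycle regulator, had 55 UMIs from 12 cells and 13 UMIs from 10 cells (log2 -2.56). Among genes with 3 or fewer UMIs in HFD, Hspb1 had 34 and 1 UMIs, with 29 of the 34 in 1 cell, and Dcn had 29 and 3, with 24 in 1 cell. Hist1h2ap, a histone gene, had 23 and 2 UMIs. Scgb1a1, the secretoglobin of airway club cells, had 25 and 0 UMIs. In the other kept cells Scgb1a1 was at 10107 CPM in ND and 0.414 CPM in HFD, a difference in the same direction.

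Against the dendritic cells with Xcr1 or Clec9a, 907 genes could be compared in both libraries, and 82 were at least 2-fold higher (9.04%) and 32 lower (3.53%) in the Cd209a cells of both. Among the higher genes Mgl2 was at least 41.6-fold higher in ND and at least 31-fold higher in HFD, since the other class held 0 UMIs (bounds set at 3 UMIs per library). S100a4, a calcium-binding protein, was at 1388 CPM against 0 UMIs in ND and at 1453 against 31.1 CPM in HFD. Ccl6 was 15.8-fold and 13.9-fold higher. Sirpa, the receptor for CD47, was at 156 and 157 CPM, with 0 UMIs in the other class. Clec10a was at least 18.3-fold and at least 17.7-fold higher.

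Lower than in that class were genes of the cross-presenting lineage. Irf8, the transcription factor on which it depends, had 1 and 19 UMIs in the Cd209a cells (4.74 and 64.7 CPM), against 614 and 1010 CPM. Wdfy4, needed for cross-presentation, was 7.61-fold and 8.49-fold lower, and Ppt1, a lysosomal thioesterase, 17.7-fold and 10.4-fold. Tlr3, the sensor of double-stranded RNA, had 0 and 1 UMIs in the Cd209a cells. Of the 5 markers of that lineage that could be compared 5 were lower, although Xcr1 and Clec9a were set to 0 by the rule. MHC class II summed to 46542 and 42116 CPM in that class, close to the 55130 and 55250 CPM of the Cd209a cells.

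Against monocytes, which were chosen by Ly6c2, Plac8 or Chil3, Lyz2 and Csf1r, 39 of 785 genes were at least 2-fold higher in both libraries (4.97%) and 34 lower (4.33%). The 6 class II genes that could be compared were all higher, and the group summed to 12073 and 13162 CPM in monocytes. Besides Mgl2 and Clec10a the higher genes included Cfp, the complement factor properdin, at 464 and 405 CPM, the endocytic adaptor Dab2, at 294 and 344 CPM, and Klrd1. S100a8 and S100a9 were also among them, with nearly all UMIs in 1 cell of each library. Lower were Thbs1, the matrix protein thrombospondin 1, Hp, which encodes haptoglobin, and Gsr, glutathione reductase. Thbs1 had 2 and 1 UMIs in the Cd209a cells against 1040 and 752 CPM in monocytes, and Gsr was 23.0-fold and 9.62-fold lower. Lyz2, a lysozyme that the monocyte rule used, was at 2795 and 1940 CPM in the Cd209a cells, against 13606 and 6964 CPM in monocytes. The monocyte class held only 22 and 14 cells.

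Macrophages were chosen by C1q and by a UMI of Adgre1, Csf1r or Cd68, without Cd209a. Against them 151 of 5177 genes were at least 2-fold higher in both libraries (2.92%) and 441 lower (8.52%). Itgb7 was 27.1-fold and 24.0-fold higher, Dpp4, a dipeptidyl peptidase, 18.6-fold and 16.3-fold, and H2-DMb2 14.5-fold and 34.2-fold. Cd7, a surface protein of lymphoid and dendritic progenitors, was at least 54.2-fold and at least 111-fold higher, but its UMIs came from 4 ND and 14 HFD cells. All 13 macrophage markers were lower, 3 of them by the C1q limit. Markers among Adgre1, Csf1r and Cd68 also helped to choose the macrophages, so their direction was partly set in advance. Pf4, a chemokine of tissue macrophages, had 1 and 2 UMIs in the Cd209a cells against 2230 and 708 CPM, and Folr2, a folate receptor, had 0 and 0. Of 21 lipid handling genes 14 were lower in the Cd209a cells, and so were 7 of 14 chemokines and 6 of 11 endosomal processing genes. MHC class II summed to 34240 and 24022 CPM in macrophages.

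**Figure D5:**
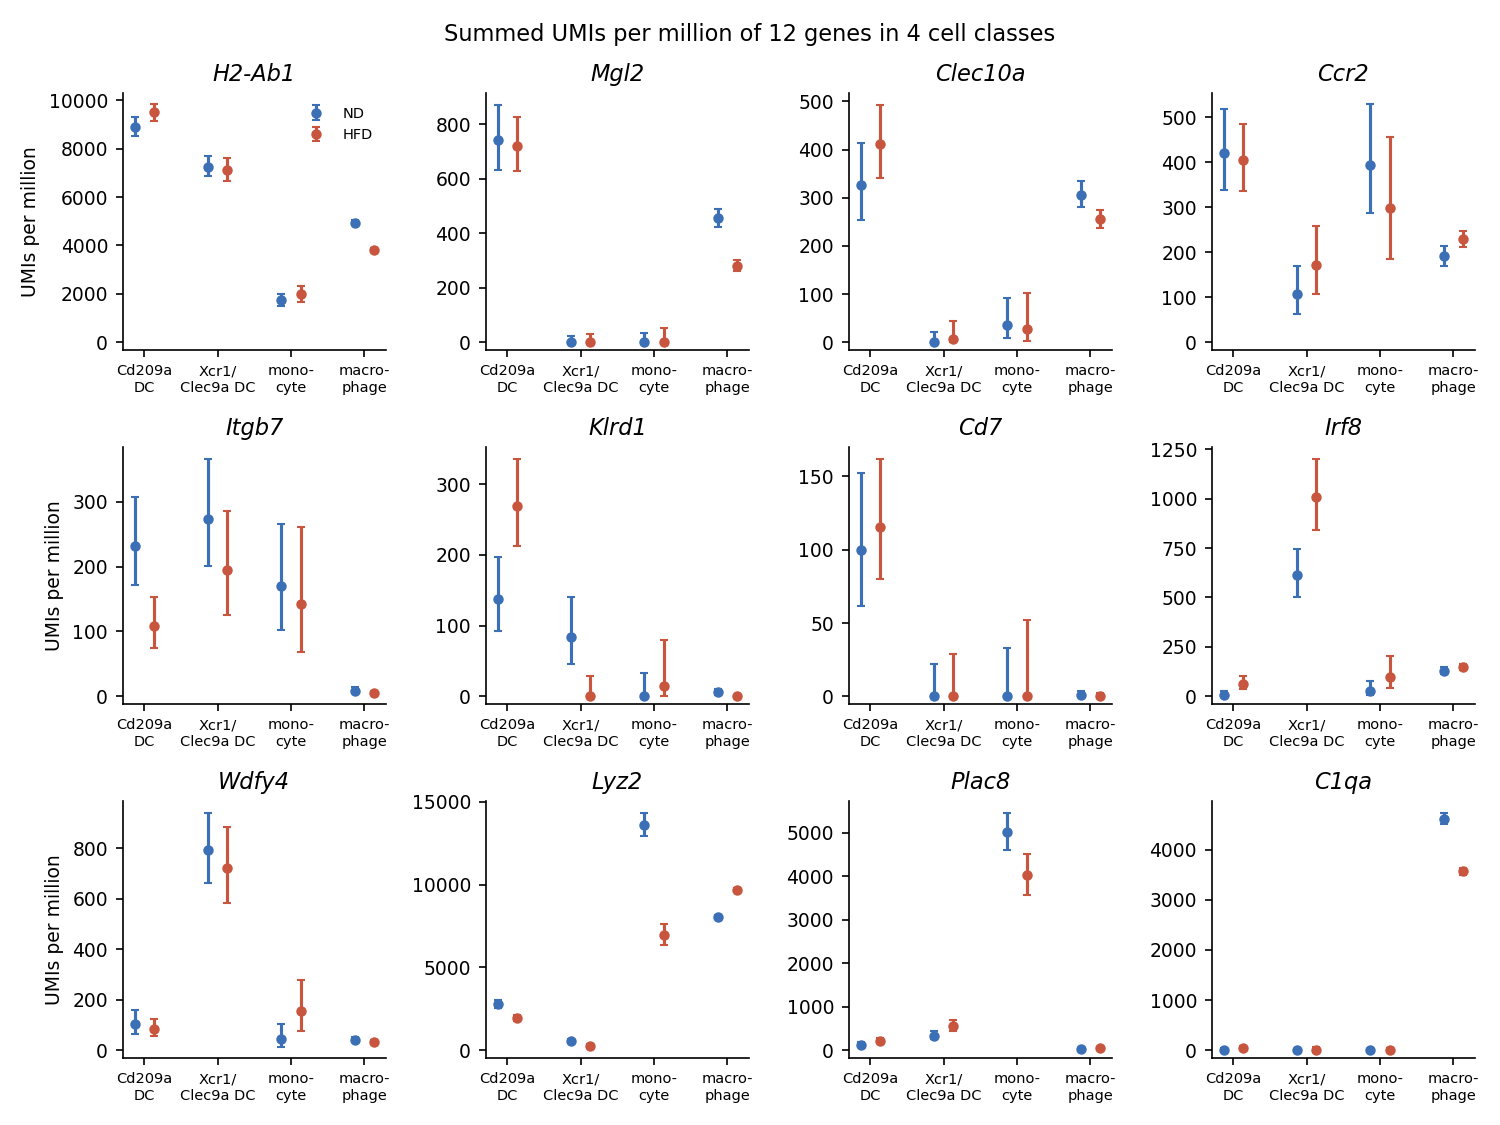
CPM of 12 genes in Cd209a dendritic cells, Xcr1/Clec9a dendritic cells, monocytes and macrophages of both libraries, with exact 95% Poisson intervals. Mgl2 and Clec10a were near 0 in the other dendritic cells and in monocytes but not in macrophages, while Irf8 and Wdfy4 were highest in the Xcr1/Clec9a cells and C1qa in the macrophages that were chosen by it.

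The members were not alike among themselves. Mgl2 was found in 23 of 31 ND members and in 26 of 51 HFD members, which is 48.4% and 35.3% after thinning to 1000 UMIs. In HFD the members with Mgl2 held Lyz2 at 3123 CPM and Ccr2 at 560 CPM, and those without it held 285 and 188 CPM. In ND the levels without Mgl2 were not lower, at 3774 CPM of Lyz2 against 2334 CPM with it and at 503 CPM of Ccr2 against 383 CPM. In HFD the top cell held 171 and the next 102 of the 570 Lyz2 UMIs, so the Lyz2 levels rested largely on few cells. These groups were formed on the same cells and are given as descriptions.

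Members with Ccr7, 5 in ND and 7 in HFD, held more Il1b than the rest, at 4425 against 740 CPM in ND and 2784 against 955 CPM in HFD. In HFD they held little Mgl2, at 83 CPM against 811 CPM in the rest, which was not so in ND, at 758 and 740 CPM. Spread over cells was measured by the Fano factor, the variance of a gene's thinned counts over their mean, whose median was 1.11 in each library over 586 genes with at least 100 UMIs. By the lower of its 2 values S100a9 had the widest spread, at 13 and 11, before Fn1, the matrix protein fibronectin, at 8.84 and 6.92. Malat1, a nuclear RNA, was at 12.9 in ND but 3.71 in HFD. Of the Fn1 UMIs 155 of 244 in ND and 96 of 210 in HFD came from 1 cell each. Lyz2 had Fano factors of 4.21 and 5.05 and was found in 27 and 36 cells, but few cells held much of it. The top cell and the next held 171 and 85 of 590 UMIs in ND and 171 and 102 of 570 in HFD.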

How the data were processed

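Aortic arches were digested with an enzyme mix of a lung dissociation kit, and the cells of 2 aortas per diet made 1 droplet library. The authors deposited UMI counts per gene and barcode for 31053 genes, made with Cell Ranger 3.0.1 per the file headers on build mm10 per the submitters' processing notes, which also name bcl2fastq, UMI-tools, Seurat 3.2.0 and R 4.0.0. Barcodes under 200 genes or 200 UMIs, or with mitochondrial UMIs over 30%, were dropped, which left 5416 ND and 2739 HFD cells of 10234 and 14225 barcodes, with 27137322 and 17191279 UMIs. The labels state these same cell counts. The members and the gene lists were chosen with earlier results of these data known. The 35 lists hold 363 genes, of which Ifi30, Clec7a and Clec6a were not analysed here. Each class was pooled per library into 1 profile, expressed per 1000000 of its UMIs (CPM). A ratio was read for genes with at least 50 UMIs over both libraries and called at 2-fold. Levels have exact Poisson, shares Clopper-Pearson and ratios conditional binomial 95% intervals, and 3 UMIs stand in for a sum of 3 or fewer in a bound. Named are the genes of the rule, up to 4 genes of each list with the most UMIs and those past 2-fold, the 10 genes with the largest ratio each way (at least 4 UMIs in each library), the 5 each way with 3 or fewer UMIs in 1 library, 10 genes each way against each like class and the 10 with the largest Fano factor, and the text gives a choice of these. No doublet caller was run: cells with UMIs of 2 or more markers of another lineage were left out in an alternative. Other classes were cut by marker rules in the same way. Cells were thinned to 1000 UMIs with a fixed seed. The alternatives without the top cell of each gene, without cells led by haemoglobin or S100a8 and S100a9, with barcodes over 30% and with B cells out of the denominator were chosen after seeing the data. Positions are from GENCODE vM21 (GRCm38) and promoters from RefSeq (GRCm38.p6). Python 3.11.15, numpy 2.4.6, scipy 1.17.1, pandas 2.3.3 and matplotlib 3.10.9 were used, and the scripts were tested on simulated counts.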

Additional observations from a re-analysis of the deposited data

Results flagged for a closer look

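Barcodes that the quality filter removed were not used in the comparisons, and some of them met the gene rule for Cd209a dendritic cells. In HFD 11 of 11486 removed barcodes did so (0.0958%, 0.0478 to 0.171%), against 1 of 4818 in ND (0.0208%). The 11 had a median of 34.4% mitochondrial UMIs and 3802 UMIs, 10 of them held H2-Ab1, and their MHC class II genes summed to 48116 CPM.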

How the results depend on the processing

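No paired analysis was possible because each diet has 1 library. The share of Cd209a dendritic cells was the higher in HFD in every setting run. It moved to 0.821% in ND (log2 ratio 0.95) with at most 20% mitochondrial UMIs, to 0.318% in ND and 0.840% in HFD after thinning, and to 0.332% in ND without candidate doublets. It was 1.96% and 6.04% of cells with Ptprc, 2.78% and 6.10% of those outside the B cells, and 0.623% in HFD (log2 ratio 0.59) with barcodes over 30% mitochondrial UMIs. Genes at least 2-fold higher and lower numbered 32 and 72, and 56 and 39 with median of ratios. Lower genes numbered 40 without mitochondrial, haemoglobin and ribosomal protein genes. The counts were 12 and 6 of 196 genes after thinning, 17 and 44 of 799 at 20%, 21 and 42 of 780 without candidate doublets, 140 and 280 of 2901 with at least 20 UMIs, and 2138 and 3151 of 11179 with no limit, where fewer or more genes were tested. Over 37 named genes and 392 values, 334 moved by less than the counting interval, 49 moved beyond it and 9 turned in sign. The turned log2 ratios were Fabp4 0.37 and Cd36 1.87 after thinning, S100a9 0.080, Ifitm1 -0.39 and Tbc1d4 -0.27 at 20% mitochondrial UMIs, Ccl5 -1.33 with C1q under 0.1%, Fabp4 2.23 without candidate doublets, and Ccl5 -0.72 and Fabp4 0.20 without the top cells. Tbc1d4 is a gene of the rule, so its ratio is no result about the members. Beyond the number of genes tested, the cause was not tested.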
